A study of Homo sapiens with 19 samples.

Results

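ATF4 and 9 of the genes it is known to drive were followed across RNA-seq libraries of A549, a long-established line of human lung adenocarcinoma cells. The genes were ATF4, DDIT3, DDIT4, TRIB3, ASNS, CHAC1, PSAT1, PHGDH, SHMT2 and MTHFD2, found by matching the Ensembl gene identifiers in the count files to symbols. All 10 were present, out of 62700 genes. They were listed by name for their known link to ATF4 and amino acid stress. No cut on a measured value was used, but earlier results of these data were known. The study concerns nanostraw electroporation (NEE), which uses hollow nanotubes and short electric pulses to reach the inside of living cells. One arm held 3 libraries of RNA drawn by NEE from A549 monolayers, labelled as technical replicates. The other arm held 16 lysate libraries, from cells grown as spheroids or as monolayers and lysed before NEE, right after it, 2 h after it and 24 h after it, with 2 biological replicates in each of the 8 groups. No group in these data was kept for the same time without NEE, so the effect of NEE and that of handling and time in culture cannot be told apart. All groups are of 1 cell line.

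ATF4 is the transcription factor of the integrated stress response. When amino acids run short, unfolded protein builds up in the endoplasmic reticulum, haem is lacking or mitochondria fail, kinases phosphorylate the initiation factor eIF2, general translation falls and the ATF4 mRNA is translated more. Much of the control of ATF4 therefore acts on its protein, which RNA counts do not show. With partner factors ATF4 then raises genes for amino acid uptake and synthesis, for serine and one-carbon metabolism and for feedback on the response. In non-small cell lung cancer lines NRF2 is known to act through ATF4 on the serine enzymes, PHGDH and PSAT1 among them.

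The lysate libraries held 16031034 to 24571083 counts and the NEE-sampled libraries 13626934 to 18512985. A count of 3 corresponds to 0.122 to 0.187 CPM (counts scaled to the total of their library) in lysates and to 0.162 to 0.220 CPM in NEE-sampled RNA, which covers counting error only. Replicate 1 of the monolayers before NEE stood apart. Its 8 NK and T cell markers summed to 562 CPM, against 14.3 to 50.1 CPM in the other 15 lysates and 0.216 to 1.03 CPM in NEE-sampled RNA, where CD3E was at 0. Its 6 epithelial markers summed to 6423 CPM, against 12630 to 26230 CPM in the other lysates. Some of the fold changes that rest on this library are given with and without it.

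Promoters of 9 of the 10 genes, all but SHMT2, were found in a table from RefSeq (GRCh38.p14). In 2 of the 9 the letters TGATGNAA, the core of the C/EBP-ATF element that ATF4 binds, stood on either strand within the 250 bases before a start. These letters stood in 3.14% of all 35116 such windows. The letters ACGTG, the core of the hypoxia response element and part of other motifs, stood in 18.5% of the windows and in those of ATF4, DDIT4 and MTHFD2. The matches in ASNS and CHAC1 are shown because both are well-known ATF4 targets. That in DDIT4 was picked by its result, as DDIT4 was higher in spheroids together with hypoxia genes. The same letters stood before ATF4, which was not called between the cultures, and before MTHFD2, which was lower in spheroids. A role of hypoxia was not tested. Capitals mark the match, and each line reads along the gene's strand. The ASNS match lies at chr7:97872458-97872487 on the minus strand, 68 to 61 bases before the start. That of CHAC1 lies at chr15:40953251-40953280 on the plus strand and reads on the other strand, 209 to 202 bases before the start. That of DDIT4 lies at chr10:72273788-72273814 on the plus strand, 125 to 121 bases before the start. A match of letters is not a measured binding site.
ASNS: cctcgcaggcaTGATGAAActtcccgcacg
CHAC1: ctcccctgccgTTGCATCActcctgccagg
DDIT4: gaacgttgcttACGTGcgcccggagtc

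The 10 genes spanned a wide range of levels. Coordinates are those of GENCODE 29 on GRCh38, where ASNS and DDIT3 lie on the minus strand and the other 8 on the plus strand, and all are protein-coding. Exon length joins all annotated exons of a gene, from 1307 bases for DDIT3 to 9217 for PHGDH. Levels per kilobase, and the order of the genes, depend on this choice. Per kilobase of exon, DDIT4 had the highest mean in spheroids, at 453 ± 273 CPM per kb (SD, n = 8), followed by PSAT1 at 74.5 ± 7.98 and ATF4 at 50.8 ± 12.5. In monolayers PSAT1 had the highest mean, at 251 ± 71.1 CPM per kb (SD, n = 8), and DDIT4 stood at 211 ± 78.3, so that the pair did not differ beyond their spread. SHMT2 and TRIB3 did not differ beyond their spread in spheroids (33.0 ± 2.74 and 32.1 ± 11.9 CPM per kb), nor did SHMT2 and ATF4 in monolayers (50.1 ± 9.2 and 59.2 ± 13.04). DDIT3 and CHAC1 lay under 6 CPM per kb in both cultures. ASNS was almost without counts.

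ASNS (ENSG00000070669), which makes asparagine and is one of the best known ATF4 targets, could not be read. It had 0 counts in each of the 3 NEE-sampled libraries, 0 to 8 counts in spheroids and 0 to 18 counts in monolayers. In the GENCODE 29 annotation 1985 of its 4455 exon bases (chr7:97852118-97872542, minus strand) are shared with the gene ENSG00000284707 on the same strand. That gene reached at most 1.14 CPM in a lysate. The part of this overlap in the low counts was not tested. ASNS passed the filter on low counts in both fits and was called in no comparison, and its fold changes are not read as expression.

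**Figure D1:**
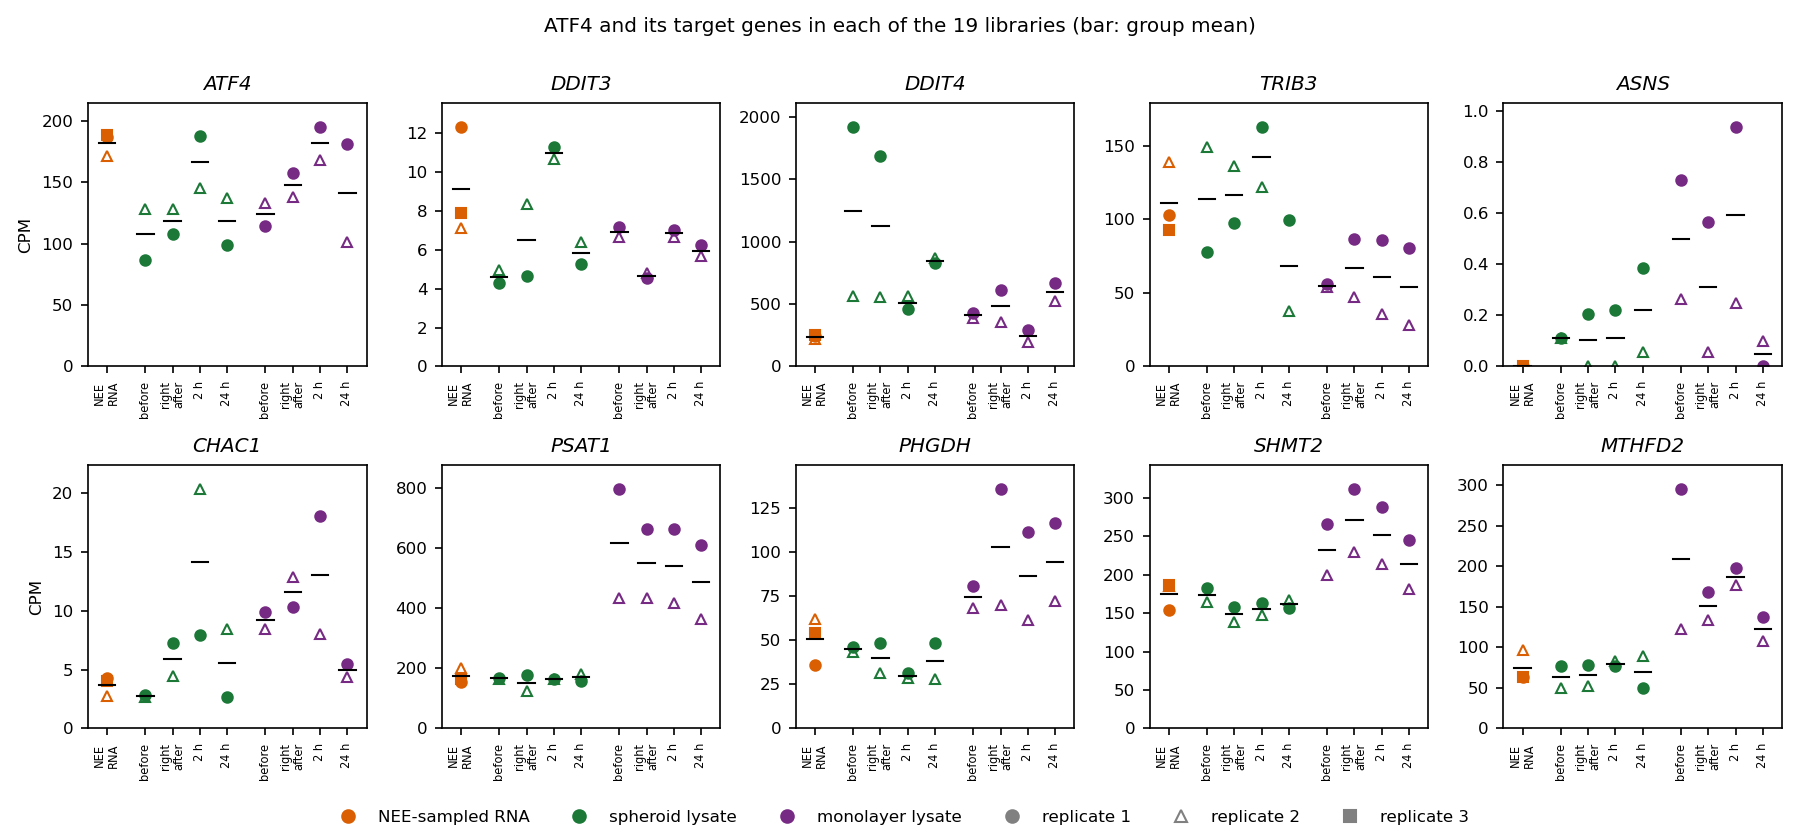
CPM of the genes in each of the 19 libraries, with 1 panel a gene and groups ordered by arm, culture and time. PSAT1 lies between 124 and 182 CPM in the spheroids and between 365 and 798 CPM in the monolayers, while ATF4 covers about the same range in both.

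The first question was how the genes differ between the culture forms. Taken over the 4 times, spheroids had less RNA of the serine and one-carbon enzymes PSAT1, PHGDH, SHMT2 and MTHFD2 than monolayers, and more of the stress genes DDIT4 and TRIB3. ATF4 RNA itself did not pass the test. So 6 of the 10 genes were called, 2 higher and 4 lower, with edgeR's quasi-likelihood test and a Benjamini-Hochberg adjusted p under 0.05. Over all 17822 genes tested 19.9% were called, 10% higher and 9.84% lower. The median log2 fold change of the 10 genes was −0.51, against −0.02 for all genes. Less RNA per cell and fewer cells that make it cannot be told apart in bulk libraries.

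PSAT1 (ENSG00000135069, chr9:78297143-78330093), the aminotransferase of serine synthesis, had 124, 164 and 182 CPM as lowest, median and highest value in spheroids, against 365, 523 and 798 CPM in monolayers. Every spheroid library lay below every monolayer library. The mean was 163 ± 17.5 CPM in spheroids and 548.9 ± 156 CPM in monolayers (SD, n = 8 each). PSAT1 RNA was thus 3.15-fold lower in spheroids, and the fit gave −1.66 ± 0.17 as log2 fold change, with its SE (edgeR adjusted p = 4.5e-05). PHGDH (ENSG00000092621, chr1:119648411-119744226), which starts the pathway from a glycolytic intermediate, had 28.0, 37.4 and 48.5 CPM in spheroids, against 61.4, 76.5 and 136 CPM in monolayers. These ranges did not overlap either. Its log2 fold change was −1.14 ± 0.20 (edgeR adjusted p = 0.00128).

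MTHFD2 (ENSG00000065911, chr2:74198562-74217565), a mitochondrial enzyme of the folate cycle, had 49.8, 77.0 and 89.95 CPM in spheroids, against 108, 153 and 296 CPM in monolayers. The groups did not overlap, and the log2 fold change was −1.15 ± 0.20 (edgeR adjusted p = 0.00138). SHMT2 (ENSG00000182199, chr12:57229327-57234935), which turns serine into glycine in mitochondria, had 139, 161 and 183 CPM in spheroids, against 182, 238 and 312 CPM in monolayers. The ranges touched at 1 library of each culture, and the change was the smallest of these 4 genes, at −0.51 ± 0.12 (edgeR adjusted p = 0.0096). Groups without overlap were thus found for 3 of the 10 genes, all lower in spheroids, against 7% of all genes in either direction, 4.51% lower and 2.49% higher.

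These 4 enzymes also differed between the monolayer replicates. At each of the 4 times replicate 1 was above replicate 2, and for PSAT1 the 4 monolayers numbered 1 had a mean of 684 ± 79.7 CPM and those numbered 2 a mean of 413 ± 33.2 CPM (SD, n = 4 each). In spheroids the replicates stood close, at 167 ± 7.77 CPM for number 1 and 159 ± 24.5 CPM for number 2. The fit takes libraries of the same number at different times as independent, so SE and p of the culture comparison may be too small. The block by replicate number, run as an alternative, assumes the same difference between numbers in both cultures. The difference between cultures was seen within each number. PHGDH, for example, was 43.6 ± 8.31 CPM in spheroids and 111 ± 22.8 CPM in monolayers numbered 1, and 32.9 ± 7.21 CPM in spheroids and 67.9 ± 4.65 CPM in monolayers numbered 2. Replicate 1 of the monolayers before NEE, with its NK and T cell markers, had the highest PSAT1 and MTHFD2 of all libraries (798 and 296 CPM). Leaving it out gave log2 fold changes of −1.53 for PSAT1, −1.11 for PHGDH, −0.45 for SHMT2 and −0.96 for MTHFD2. Without it, as in all 20 alternative settings, PSAT1, PHGDH, SHMT2 and MTHFD2 were called lower.

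DDIT4 (ENSG00000168209, chr10:72273920-72276036), an inhibitor of mTORC1 that also answers to hypoxia and glucocorticoids, had 460, 697 and 1923 CPM in spheroids, against 192, 409 and 668 CPM in monolayers. The ranges overlapped. The 2 highest values, 1923 and 1692 CPM, came from replicate 1 of the spheroids before and right after NEE, where replicate 2 had 566 and 555 CPM. The log2 fold change was 1.20 ± 0.27 (edgeR adjusted p = 0.00889), and it was called in all 20 alternatives, among them those without either of these libraries. TRIB3 (ENSG00000101255, chr20:362835-397559), a pseudokinase that binds ATF4 and dampens its activity, had 37.4, 111 and 163 CPM in spheroids, against 28.0, 54.9 and 86.4 CPM in monolayers. At 3 of the 4 times its spheroid pair was above its monolayer pair, without a share of all genes taken, and at 24 h they overlapped. Its log2 fold change of 0.94 ± 0.28 (edgeR adjusted p = 0.0301) was called in 11 of 20 alternatives. The call was lost without any of 9 single libraries (edgeR adjusted p = 0.0606 to 0.0865), which were replicate 2 of the monolayers at each of the 4 times, replicate 1 of the monolayers before NEE, replicate 2 of the spheroids before and right after NEE, and replicate 1 of the spheroids at 2 h and 24 h.

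ATF4 (ENSG00000128272, chr22:39519695-39522685) had 86.9, 128 and 188 CPM in spheroids, against 101, 148 and 195 CPM in monolayers, and the cultures overlapped over nearly the whole range. Its log2 fold change was −0.14 ± 0.15 (edgeR adjusted p = 0.569). DDIT3 (ENSG00000175197, chr12:57516588-57521737), known as CHOP and tied to death under prolonged stress, had 4.27, 5.85 and 11.3 CPM in spheroids, against 4.53, 6.45 and 7.16 CPM in monolayers (log2 fold change 0.22 ± 0.21, edgeR adjusted p = 0.500). It shares 355 exon bases with MARS1 on the opposite strand, which reached 861 CPM and was lower in spheroids (−0.85 ± 0.16, edgeR adjusted p = 0.00235), and the strand setting of the counting is not given in the sources used here. CHAC1 (ENSG00000128965, chr15:40952962-40956519), which degrades glutathione, had 2.66, 5.87 and 20.3 CPM in spheroids, against 4.36, 9.17 and 18.0 CPM in monolayers (−0.52 ± 0.30, edgeR adjusted p = 0.257). Before NEE and right after it both CHAC1 values of the spheroids lay below both of the monolayers, and at 2 h and 24 h they overlapped. PSAT1, PHGDH, SHMT2 and MTHFD2 also lay lower before NEE and right after it, and the share over all genes was not taken.

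**Figure D2:**
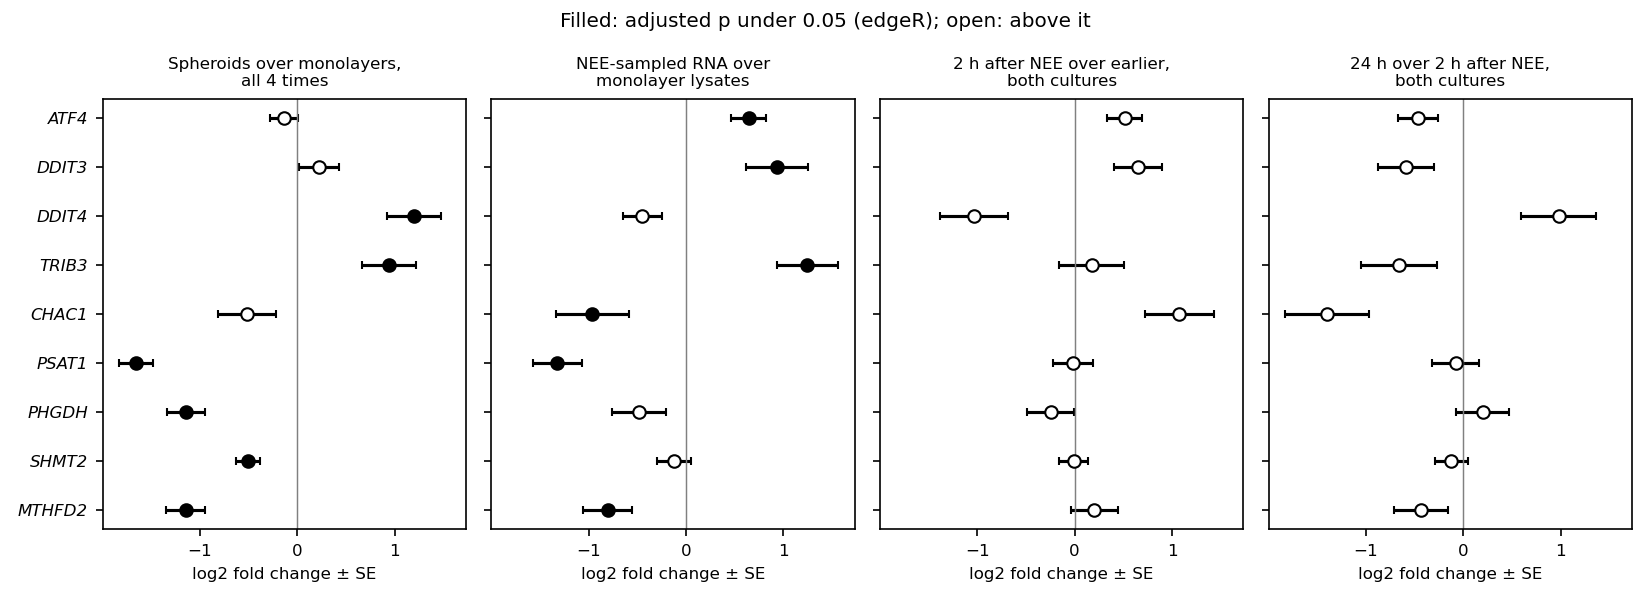
Log2 fold changes with their SE for 9 genes in 4 comparisons, where filled points passed the adjusted p. In the panel of spheroids over monolayers the 4 serine and one-carbon enzymes lie between −1.66 and −0.51 and DDIT4 and TRIB3 at 1.20 and 0.94, and no point is filled in the panels of time.

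Of 13 further genes of serine, glycine and one-carbon metabolism 11 were tested, and 0 were called higher and 6 lower in spheroids. Over all genes 10% were called higher and 9.84% lower. The median log2 fold change of the 11 serine and one-carbon genes was −0.64, and the 5 that did not pass had negative values too. Among the called genes were ALDH1L2 (−1.93), MTHFD1 (−0.76), MTHFD1L (−0.64), SFXN1 (−0.53), which carries serine into mitochondria, and PSPH (−0.45), the phosphatase that completes serine synthesis. MTHFD1, the cytosolic enzyme of the folate cycle, averaged 295 ± 29.7 CPM in spheroids and 530 ± 50 CPM in monolayers (SD, n = 8 each). Other targets of ATF4 split. Of 24 genes 23 were tested, 2 were called higher, CTH (0.86) and HERPUD1 (0.89), and 7 lower, with a median of −0.26. The lower ones were the tRNA synthetases GARS1 (−0.92) and WARS1 (−0.51), the tRNA exporter XPOT (−0.79), the amino acid carriers SLC7A1 (−0.92), SLC6A9 (−0.74) and SLC3A2 (−0.39), and PYCR1 (−0.62), which makes proline.

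For the list counts that follow, 10% of all genes were called higher in spheroids and 9.84% lower. Upstream of ATF4, 11 genes of the kinases and of eIF2 control were tested. DELE1, which signals mitochondrial stress, was called higher (0.41), and EIF2S1 (−0.63), GCN1 (−0.60), EIF2AK2 (−0.55) and PPP1R15B (−0.49) lower. Among 9 tested bZIP and related factors only ATF3 was called (−2.76), with 0 to 74.1 CPM in spheroids and 2.65 to 83.3 CPM in monolayers. ER chaperones and other genes of the unfolded protein response went the other way, with 7 of 10 called higher and 0 lower and a median of 0.58, among them XBP1 (2.03), CRELD2 (1.47), DNAJB9 (1.16) and HSPA5 (0.58). Of 9 hypoxia targets 5 were called higher and 0 lower, with a median of 1.70. CA9, a carbonic anhydrase, averaged 223 ± 85.7 CPM in spheroids and 2.75 ± 3.23 CPM in monolayers (SD, n = 8 each; log2 fold change 6.91). The part of hypoxia in the higher DDIT4 was not tested. Of 7 glucocorticoid targets 1 was called higher, TSC22D3 (0.67), and of 10 NRF2 targets 3 higher and 1 lower. None of these list counts moved by more than 1 on leaving out the monolayer library that carried the NK and T cell markers. Of the 38 genes called in the lists 25 were called in all 20 alternatives, and none changed its sign. Among the named genes MTHFD1L, PSPH, XPOT, SLC7A1, SLC3A2, DELE1, EIF2AK2, PPP1R15B and CRELD2 each lost the call on leaving out certain single libraries, from 6 of 20 alternatives called for PSPH to 18 for EIF2AK2.

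**Figure D3:**
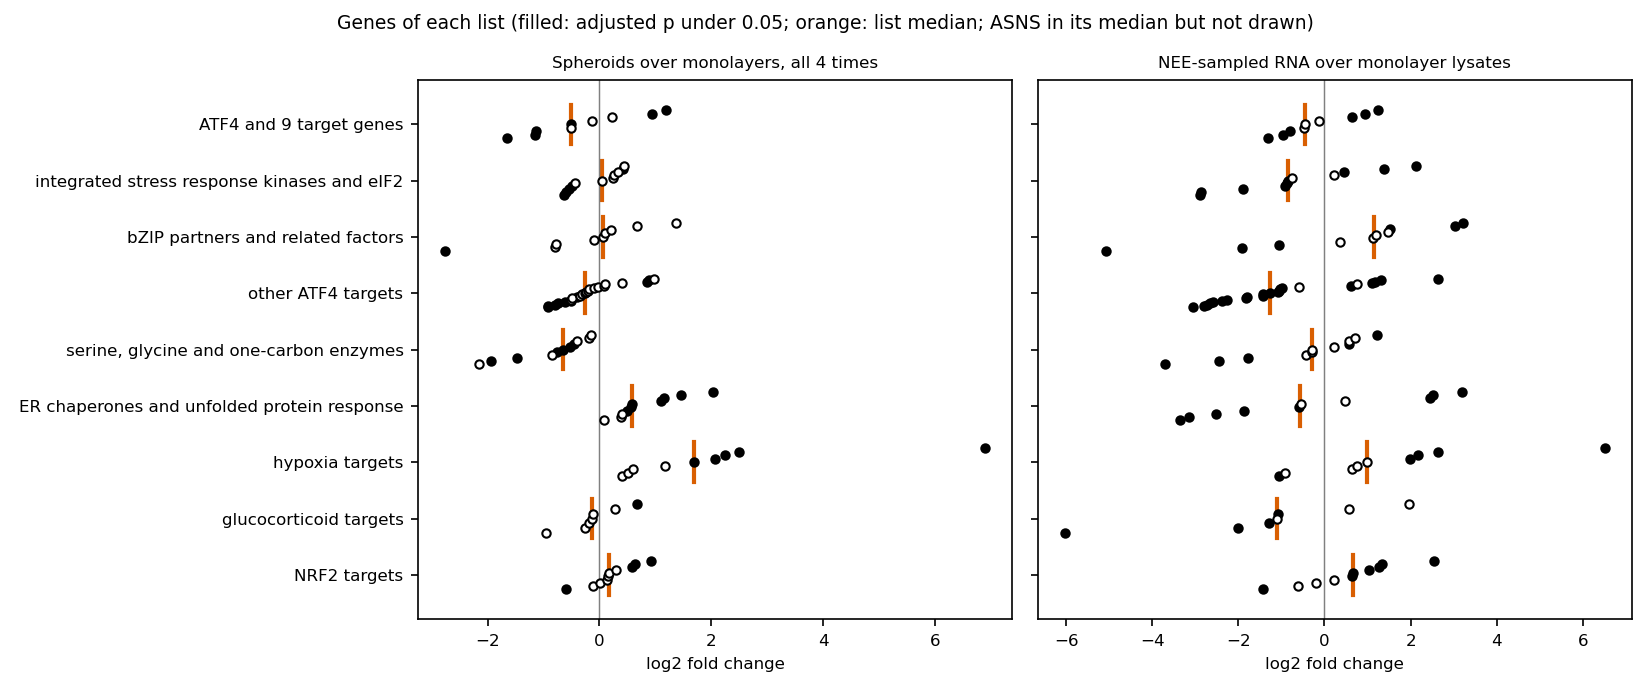
Log2 fold change of each tested gene of the lists in 2 comparisons, spheroids over monolayers and NEE-sampled RNA over monolayers, with the median of each list. In spheroids the further serine and one-carbon genes all lie below 0 and the ER and hypoxia genes all above it, and in NEE-sampled RNA the other targets of ATF4 have a median of −1.27.

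The second question was whether the genes moved after NEE. In the fit over both cultures, ATF4, DDIT3 and CHAC1 had positive log2 fold changes at 2 h against the earlier times and DDIT4 a negative one, of 1.43 to 2.11 times. No change passed the test across all genes, and the values at 2 h and earlier overlapped for each of the 10 genes. With the 4 libraries at 2 h set against the 8 libraries before and right after NEE, 0 of the 10 genes were called by edgeR's quasi-likelihood test or by DESeq2, against 0.0729% of all genes, or 13 genes, each of them higher, called by edgeR and 0.477% by DESeq2. Without adjustment 3 of the 10 were higher and 1 lower at a p under 0.05, as were 875 of all 17822 genes in either direction.

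ATF4 had 188 and 146 CPM in the spheroids and 195 and 169 CPM in the monolayers at 2 h. The spheroids had 86.9 and 128 CPM before NEE and 108 and 128 CPM right after it, and the monolayers 115 and 133 CPM and 158 and 138 CPM. Each pair at 2 h lay above its pair before NEE, as did 15.2% of all genes in spheroids and 10.8% in monolayers. The 2 h and earlier values overlapped only across cultures, where 1 spheroid at 2 h lay below 1 monolayer right after NEE. The log2 fold change was 0.51 ± 0.18 (edgeR adjusted p = 0.799), and it was positive in all 21 alternatives, between 0.41 and 0.61. The 2 cultures had nearly the same change against before NEE, 0.61 ± 0.29 in each. Without replicate 1 of the monolayers before NEE, that in monolayers was 0.50.

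CHAC1 had 7.90 and 20.3 CPM in spheroids at 2 h, against 2.83 and 2.70 CPM before NEE, and 18.0 and 8.02 CPM in monolayers at 2 h, against 9.89 and 8.46 CPM before. Both spheroids lay above their pair before NEE, as for 15.2% of all genes, while the monolayers lay on either side of theirs. Over both cultures and against both earlier times its log2 fold change was 1.08 ± 0.35 (edgeR adjusted p = 0.733). In spheroids against before NEE it was 2.31 ± 0.63 (edgeR adjusted p = 0.928), the highest of the 10 genes, and without replicate 2 of the spheroids at 2 h it was 1.5. In that comparison 0 of the 10 genes were called by edgeR's quasi-likelihood test or by DESeq2, against 0.0112% and 0.219% of all genes, and 3 of the 10 had an unadjusted p under 0.05, as did 604 of all 17822 genes. DDIT3 had 11.3 and 10.7 CPM in spheroids at 2 h, against 4.27 and 4.95 CPM before NEE, and 7.0 and 6.68 CPM in monolayers at 2 h, against 7.16 and 6.67 CPM before. Its ratio to before NEE was 2.64 and 2.15 for the spheroids numbered 1 and 2, and 0.977 and 1.00 for the monolayers. MARS1, which overlaps it, moved by 0.06 on the log2 scale at 2 h over both cultures (edgeR adjusted p = 1).

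The differences between cultures in these changes were tested as such. For CHAC1 the change at 2 h was 1.75 ± 0.85 larger in spheroids than in monolayers on the log2 scale and for DDIT3 1.18 ± 0.58, with an edgeR adjusted p of 1.00 for both. That of CHAC1 was 0.93 without replicate 2 of the spheroids at 2 h, 1.28 without replicate 2 of the monolayers at 2 h and 2.41 without replicate 1 of those monolayers. Leaving out replicate 1 of the monolayers before NEE gave 1.64 for CHAC1 and 1.13 for DDIT3. At each of the 3 times after NEE this test called 0 of the 10 genes and 0% of all genes by edgeR's quasi-likelihood test. DESeq2 called 0 of the 10 and 1 to 11 of all genes. At an unadjusted p under 0.05 edgeR's test gave 0 of the 10 at each time, and 516 to 628 of all genes. When monolayer replicate 2 from before NEE was left out, edgeR called 2 to 12 of all genes and 0 of the 10.

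DDIT4 had 460 and 564 CPM in spheroids at 2 h, against 1923 and 566 CPM before NEE, and 293 and 192 CPM in monolayers at 2 h, against 431 and 387 CPM before. Its ratio to before NEE was 0.239 for spheroid replicate 1 and 0.997 for replicate 2, so that the change in spheroids (−1.32 ± 0.55, edgeR adjusted p = 1) rests on replicate 1, and it was 0.681 and 0.498 for the monolayers. Over both cultures and both earlier times the log2 fold change was −1.03 ± 0.35 (edgeR adjusted p = 0.784), negative in all 21 alternatives and called in 1 of them, without the filter on low counts. In monolayers at 2 h against before NEE 0 of the 10 genes were called by edgeR's quasi-likelihood test or by DESeq2, against 0.00561% and 0.23% of all genes, and 0 had an unadjusted p under 0.05, as did 605 of all genes.

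**Figure D4:**
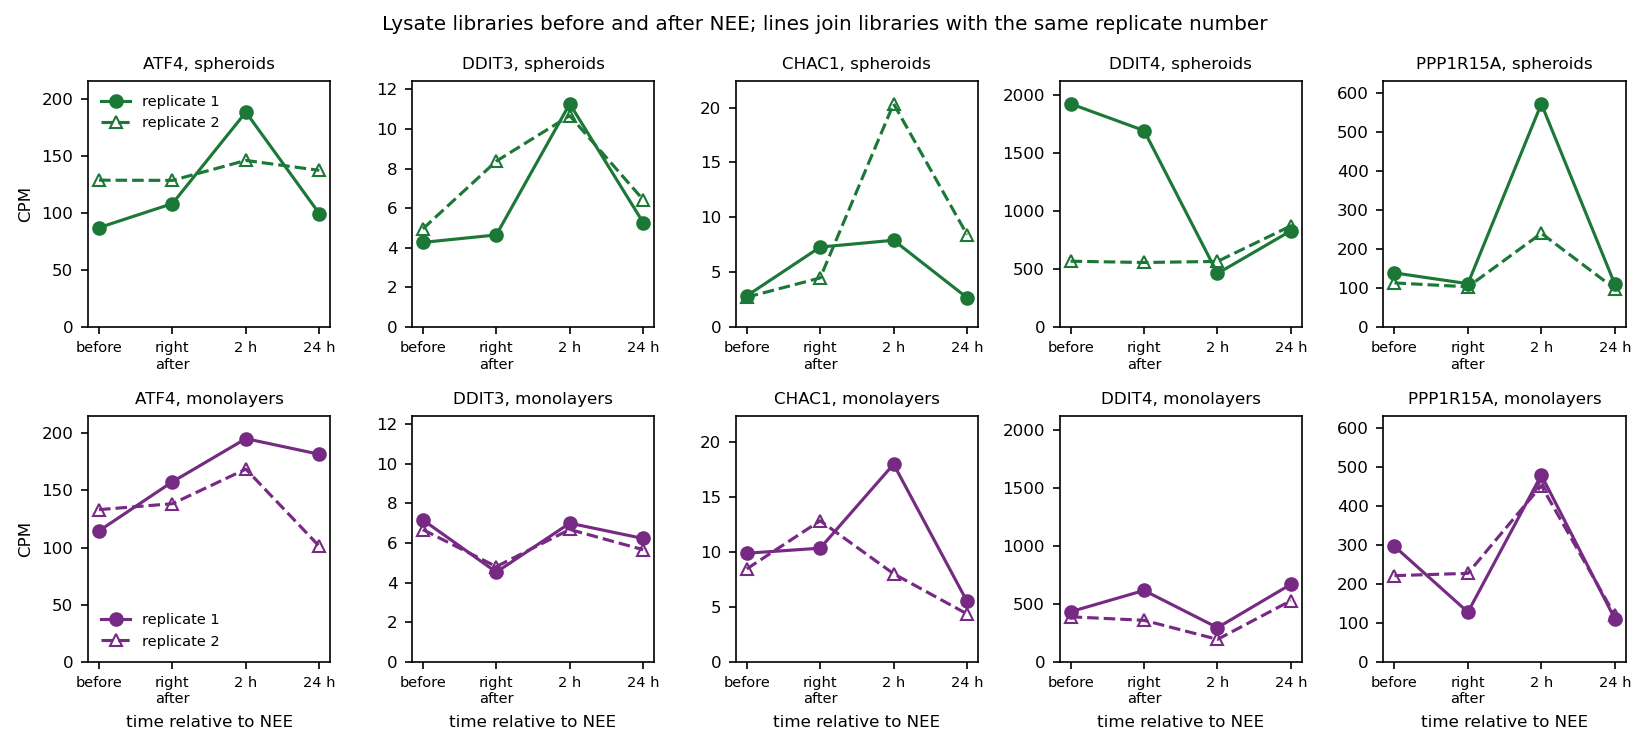
CPM by time relative to NEE for selected genes, with 1 line for each culture and replicate number. Not every line has its highest or lowest value at 2 h. DDIT4 of spheroid replicate 2, for example, had 555 CPM right after NEE and 564 CPM at 2 h. PPP1R15A peaks at 2 h in all 4 lines, while DDIT4 of spheroid replicate 1 starts at 1923 CPM and the other lines start between 387 and 566 CPM.

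PSAT1, PHGDH, SHMT2, MTHFD2 and TRIB3 had log2 fold changes between −0.25 and 0.20 at 2 h over both cultures. Without replicate 1 of the monolayers before NEE, MTHFD2 was at 0.39, PSAT1 at 0.11 and SHMT2 at 0.04. With it they were at 0.20, −0.02 and −0.01. PHGDH (−0.215) and TRIB3 (0.18) stayed within the range without it. In monolayers alone, MTHFD2 against before NEE was −0.10 with that library and 0.66 without it. For PHGDH the value over both cultures joins values of opposite sign, −0.61 ± 0.39 in spheroids and 0.26 ± 0.39 in monolayers against before NEE (edgeR adjusted p = 1 for both). PHGDH had 31.2 and 28.9 CPM in spheroids at 2 h, against 46.4 and 43.6 CPM before NEE, so that both lay below, as did 12.9% of all genes. The difference between the cultures was −0.87 ± 0.55 (edgeR adjusted p = 1.00). Without replicate 1 of the monolayers before NEE, PHGDH in monolayers was at 0.38 and the difference at −0.998. One gene of the same response did pass the test. PPP1R15A, known as GADD34, the subunit that brings a phosphatase to eIF2 and so ends the response, had 572 and 240 CPM in spheroids and 478 and 451 CPM in monolayers at 2 h. The 8 earlier libraries had 103 to 296 CPM, and only 1 spheroid at 2 h lay within that range. Its log2 fold change was 1.48 ± 0.21 (edgeR adjusted p = 0.014), and it was called in 19 of 21 alternatives, not without replicate 1 of the spheroids or of the monolayers at 2 h (edgeR adjusted p = 0.0732 and 0.066). PPP1R15A was the 1 gene called among 11 of the kinases and of eIF2 control. No gene was called among the 23 other ATF4 targets, where SLC7A5 (0.67 ± 0.15, edgeR adjusted p = 0.241) and SLC38A2 (0.73 ± 0.23, edgeR adjusted p = 0.723), both amino acid carriers, had the smallest p. ATF3 had a log2 fold change of 3.80 ± 0.62 and just missed the threshold (edgeR adjusted p = 0.0566). This value joins unlike changes. The ratio of ATF3 at 2 h to before NEE was 95.4 and 15.7 in spheroids, from 0.776 and 0.619 CPM. In monolayers it was 1.37 and 4.59, from 36.0 and 18.1 CPM.

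At 24 h against 2 h the log2 fold changes of ATF4, DDIT3 and CHAC1 over both cultures were negative and that of DDIT4 was positive. Again no change passed the test, and for ATF4, CHAC1 and DDIT4 the values at the 2 times overlapped. This comparison shares its 2 h libraries with the one before, so the reversed signs are not a separate observation. In it 0 of the 10 genes were called by edgeR's quasi-likelihood test or by DESeq2, against 0.0561% and 0.342% of all genes, and 3 of the 10 and 825 of all genes had an unadjusted p under 0.05. CHAC1 had 2.66 and 8.42 CPM in spheroids and 5.5 and 4.36 CPM in monolayers at 24 h, a log2 fold change of −1.40 ± 0.43 against 2 h (edgeR adjusted p = 0.802). DDIT4 stood at 828 and 871 CPM in spheroids and 668 and 526 CPM in monolayers, a log2 fold change of 0.98 ± 0.39 (edgeR adjusted p = 1.00). DDIT3 was the only one of the 10 whose 4 values at 24 h, 5.27 to 6.43 CPM, all lay below its 4 values at 2 h, 6.68 to 11.3 CPM, as did 1.22% of all genes, while 1.4% had all values above. PPP1R15A was lower at 24 h than at 2 h (−2.03 ± 0.26, edgeR adjusted p = 0.0128), but not so called when any 1 of the 4 libraries at 24 h was left out (edgeR adjusted p = 0.0561 to 0.0869). At 24 h and right after NEE, each against before NEE and in each culture, 0 of the 10 genes and 0% of all genes were called by edgeR's quasi-likelihood test. DESeq2 called 0 of the 10 and 0 to 41 of all genes. At an unadjusted p under 0.05 edgeR's test gave 0 of the 10 and 359 to 788 of all genes. Leaving out monolayer replicate 2 from before NEE keeps the library with the NK and T cell markers alone in its group, and edgeR then called 102 genes at 24 h, 38 right after NEE and, in place of 1, 48 at 2 h in monolayers, with 0 of the 10 among them.

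The third comparison set RNA drawn by NEE against lysates of monolayers. The NEE-sampled RNA had more ATF4, DDIT3 and TRIB3 and less PSAT1, MTHFD2 and CHAC1, relative to its library total, than the 8 monolayer libraries. That made 6 of the 10 genes called, 3 higher and 3 lower, by edgeR's quasi-likelihood test, against 48.6% of all 17067 genes tested, 22.5% higher and 26% lower. With the 3 technical replicates summed into 1 library, 0 of the 10 were called (edgeR adjusted p = 0.0608 to 0.301 for the 6), against 26.3% of all genes. The share of the 10 genes called among the separate libraries was close to the background. The median log2 fold change of the 10 genes was −0.46 and that of all genes −0.20. NEE-sampled RNA was purified with another kit than lysate RNA, so sampling and kit cannot be told apart, and the 3 libraries are technical replicates, so the p-values measure the spread between libraries.

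ATF4 had 187, 172 and 188 CPM in the NEE-sampled libraries, against 101, 148 and 195 CPM as lowest, median and highest value in monolayers. The 3 values lay between those of the pair of monolayers at 2 h (195 and 169 CPM), and the log2 fold change was 0.64 ± 0.18 (edgeR adjusted p = 0.0118). TRIB3 had 103, 139 and 92.4 CPM, against 28.0 to 86.4 CPM in monolayers, and was the only one of the 10 with all NEE-sampled values above all monolayer values, as were 15.9% of all genes (log2 fold change 1.25 ± 0.32, edgeR adjusted p = 0.00616). DDIT3 had 12.3, 7.13 and 7.89 CPM, against 4.53 to 7.16 CPM (0.93 ± 0.31, edgeR adjusted p = 0.0275). MARS1, with which it overlaps, was lower in NEE-sampled RNA (−1.97 ± 0.26, edgeR adjusted p = 7.09e-05).

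PSAT1 had 154, 201 and 165 CPM in the NEE-sampled libraries, against 365 to 798 CPM in monolayers, without overlap, and a log2 fold change of −1.32 ± 0.25 (edgeR adjusted p = 0.00101). MTHFD2 had 63.6, 97.4 and 63.4 CPM, against 108 to 296 CPM, also without overlap (−0.80 ± 0.25, edgeR adjusted p = 0.0197). CHAC1 had 4.26, 2.80 and 4.0 CPM, against 4.36 to 18.0 CPM, and was only just called (−0.96 ± 0.37, edgeR adjusted p = 0.0496). All 3 lay below every monolayer library, as did 29.5% of all genes, and 45.4% of all genes had no overlap in either direction. The other serine enzymes did not pass the test, with PHGDH at 36.0, 62.0 and 53.9 CPM (−0.48 ± 0.28, edgeR adjusted p = 0.169) and SHMT2 at 155, 186 and 186 CPM (−0.12 ± 0.18, edgeR adjusted p = 0.595). DDIT4 had 244, 219 and 254 CPM, against 192 to 668 CPM (−0.45 ± 0.20, edgeR adjusted p = 0.081).

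Leaving out replicate 1 of the monolayers before NEE gave log2 fold changes of 0.59 for ATF4, 1.23 for TRIB3 and 0.92 for DDIT3. Those of PSAT1, MTHFD2 and CHAC1 were then −1.23, −0.64 and −0.96. Calls of NEE-sampled RNA were less firm for some genes than for others. ATF4, TRIB3 and PSAT1 were called in 17 of 18 alternatives, MTHFD2 in 14, DDIT3 in 7 and CHAC1 in 2. With the replicate number as a block 3 of the 10 were called, as DDIT3 (edgeR adjusted p = 0.0534), CHAC1 (0.0747) and MTHFD2 (0.0924) were not, and the same 3 were lost without NEE-sampled replicate 1. DDIT3 was also not called without any 1 of the 6 monolayers after NEE, and MTHFD2 was not called without NEE-sampled replicate 3. CHAC1 was called only with DESeq2 and without replicate 2 of the monolayers at 2 h. DDIT4 was called lower without replicate 2 of the monolayers right after NEE (edgeR adjusted p = 0.0375). Of all genes tested in this comparison 22.5% were called higher and 26% lower, with a median of −0.20. The list of other ATF4 targets had 5 of 23 called higher and 16 lower, with a median of −1.27. EIF4EBP1 (2.63), LONP1 (1.32), GPT2 (1.18), GDF15 (1.1) and PYCR1 (0.63) were higher, the last 3 of them not so called with the replicates summed, and the carriers SLC3A2 (−2.74), SLC7A1 (−2.67) and SLC38A2 (−2.60) were among the lower ones. GDF15 was not called without NEE-sampled replicate 1 or 2, replicate 1 of the monolayers right after NEE or replicate 1 of those at 2 h, and GPT2 was not called without NEE-sampled replicate 1. PPP1R15A, which had risen in the lysates at 2 h, stood at 22.5, 24.5 and 23.9 CPM, against 110 to 478 CPM in monolayers (−2.90 ± 0.23, edgeR adjusted p = 2.65e-06).

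Patterns like that of ATF4 were looked for among 9700 other protein-coding genes that averaged 5 CPM or more over the lysates. Pearson's r was taken over the 16 lysate libraries on log2(TMM-scaled CPM + 1), as a description, since the libraries share cultures, times and replicate numbers. The closest to ATF4 were MAP2K3 (r = 0.859), AMOTL2 (0.838), CCND3 (0.837), WNT7B (0.811) and BYSL (0.808). The closest to the mean profile of the 10 genes were HDAC2 (0.889), MARS1 (0.881), RCL1 (0.861), TBRG4 (0.861) and HSPA9 (0.860). Single enzymes had closer neighbours, such as C1orf112 and GMPS for PSAT1 (both 0.974), ETF1 and DNM1L for MTHFD2 (both 0.950) and RCC1 for PHGDH (0.946).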

How the data were processed

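RNA-seq of A549 lysates (16 libraries, 8 groups of 2) and of NEE-sampled RNA (3 libraries) was analysed. The libraries were made with the Smart-Seq2 protocol and the files hold raw counts per gene as deposited by the authors. The submitters' processing notes name GRCh38 as the build and, as tools, featureCounts, HISAT2, Trimmomatic and FastQC. Not given in the sources used here are versions, annotation, strand setting and the treatment of reads that map to several places. Loci named as pseudogenes of ATF4, PSAT1 and MTHFD2 had at most 0.742 CPM in a lysate. Reads shared between these loci and the 3 genes were not tested. The 10 genes, the gene lists and the rule for named genes were chosen with earlier results of these data known. All 10 genes are named. Of each list, genes that were called and up to 4 with the smallest p in a comparison could be named.

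Levels are CPM of the library total. Tests used edgeR 4.0.16 on R 4.3.3 (TMM, filterByExpr, robust quasi-likelihood, Benjamini-Hochberg over all genes tested, adjusted p under 0.05), and a value after ± is an SD for levels and an SE for fold changes. An unadjusted p is that of edgeR. In the lysate fit (17822 genes, 8 residual df) the biological coefficient of variation was 0.518, and in that of NEE-sampled RNA with the 8 monolayers (17067 genes, 6 residual df) it was 0.519. The self-test on simulated data ran before the fits. Alternatives were RLE scaling, no filter on low counts, DESeq2 1.42.0, the replicate number as a block, each library left out in turn, 2 h against right after NEE only, NEE-sampled RNA against part of the monolayers, and its 3 libraries summed. Where a group was left with 1 library, it was assumed to vary like the others. Tables and figures used Python 3.11.15, pandas 2.3.3, numpy 2.4.6 and matplotlib 3.10.9.

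The replicate number stands under batch in the labels, and it may pair lysates of the same number. The fits hold no term for it, and the block was run as an alternative. In the 28 pairs of lysates with the same number the deviations from the group mean had correlations between −0.285 and 0.498 across 9869 genes (median 0.213), and 19 of them exceeded 0.1. What the number stands for is not known, and in NEE-sampled RNA it numbers technical repeats. No 2 libraries of a group were duplicates (mean chi-square per gene of 38.3 to 229 in the 11 pairs). Since nothing more is said of how replicates were made, p-values measure the spread between these libraries. Reads carry no molecular identifiers.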

Additional observations from a re-analysis of the deposited data

Results flagged for a closer look

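DDIT3 at 24 h against before NEE moved in opposite directions in the cultures, with the spheroid pair above its pair before NEE and the monolayer pair below its own. The log2 fold change was 0.28 ± 0.41 in spheroids and −0.20 ± 0.41 in monolayers (SE, n = 2 against 2 in each, edgeR adjusted p = 1 for both). The difference between the cultures, tested as such, was 0.48 ± 0.58 on the log2 scale (edgeR adjusted p = 1) and did not pass. With monolayer replicate 1 from before NEE left out, the value in monolayers was −0.15 and the difference 0.45. The DDIT3 pattern was picked by its result, and the share of all genes with such a pattern at 24 h was not taken. At 2 h against before NEE, pairs without overlap in either direction were common, with 28.1% of all genes in spheroids and 26.3% in monolayers. Groups of 2 and 3 libraries are too small for the test of a single outlying library.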

How the results depend on the processing

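In spheroids against monolayers the count of called genes among the 10 stayed at 5 or 6 in all 20 alternatives, with PSAT1, PHGDH, SHMT2, MTHFD2 and DDIT4 called in each, while TRIB3 was lost in 9. Without the filter on low counts 1 gene, DDIT4, was called in place of 0 at 2 h against the earlier times, at 24 h against 2 h and in spheroids at 2 h against before NEE. For NEE-sampled RNA against monolayers the count was 6, with the replicate block 3, with the 3 NEE-sampled libraries summed 0, and with each library left out in turn between 3 and 5. The replicate block changed no other call of the 10 genes, and the pairing moved no other count by over 1.5 times. Across all genes DESeq2 called 85 in place of 13 at 2 h against the earlier times and 61 in place of 10 at 24 h against 2 h, and the fit with no filter 113 and 117. Leaving out 1 library changed these counts to between 6 and 28 and between 1 and 16. RLE scaling moved the median of all genes in NEE-sampled RNA to −0.13, in place of −0.20. Of 2590 values of single genes under these alternatives 156 had the other sign, 16 of them for ASNS, and none of the 156 was called. The counts of ASNS, at most 18 in a library, set a limit on what could be detected for it. CHAC1 and DDIT3 stayed under 21 CPM, and the part of depth in their errors was not tested.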
